A study of Mus musculus with 7 samples.

Results

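A set of 6 protein-coding genes of mouse chromosome 7 is described here: Myo7a, Map6, Plekhb1, Coa4, Cdr2 and Gdpd3. They were listed by name because earlier results of this same comparison showed them to differ between the genotypes, so their values in knockout and wild-type libraries are given as a description. Counts of calls among them stand beside the share over all genes, and nothing is read from them. They are 6 of 15123 genes tested and of 53715 gene identifiers in the count table, and 6 of 6 passed the filter on low counts. The libraries hold poly(A) RNA of interscapular brown fat, a tissue that makes heat, from male mice aged 10 weeks. KO mice lack PGAM5, a phosphatase of mitochondria, and WT mice carry the intact gene. The labels give both genotypes as strain C57BL/6J. How the knockout allele was made and bred is not given in the sources used here. The labels list 4 KO and 3 WT individuals, and 3 KO and 3 WT libraries had a column in the table. KO 4 was not analysed here.

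As background, these genes have no single pathway in common. Myo7a encodes an unconventional myosin, a motor that moves along actin and is best known from the hair cells of the inner ear and from the retina, where its loss causes deafness and, in humans, Usher syndrome. Map6 encodes a microtubule-stabilising protein best known from neurons. Plekhb1 encodes evectin, a membrane protein with a pleckstrin homology domain, and Gdpd3 a glycerophosphodiesterase family enzyme that acts on lysophospholipids. Coa4 encodes a small mitochondrial protein with paired cysteine motifs that is linked, from work in yeast, to assembly of cytochrome c oxidase. Cdr2 encodes a coiled-coil protein known as an autoantigen in paraneoplastic cerebellar degeneration and reported to bind the transcription factor Myc.

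Promoter sequences of RefSeq (GRCm38.p6, the build called mm10) were found for 5 of the 6 genes, Map6 being the one without. Each runs from 250 bases before to 50 bases after a gene's start. Those of Myo7a (chr7:98119444-98119743, minus strand), Coa4 (chr7:100536850-100537149, plus strand) and Cdr2 (chr7:120982263-120982562, minus strand) are shown 5′ to 3′ on the gene's strand, since one of these genes was higher and the others were lower in KO libraries and they held the most motif matches. Capitals mark matches on either strand to the GC box GGGCGG, the CCAAT box CCAAT and the core TGACG of the cyclic AMP element.
Myo7a: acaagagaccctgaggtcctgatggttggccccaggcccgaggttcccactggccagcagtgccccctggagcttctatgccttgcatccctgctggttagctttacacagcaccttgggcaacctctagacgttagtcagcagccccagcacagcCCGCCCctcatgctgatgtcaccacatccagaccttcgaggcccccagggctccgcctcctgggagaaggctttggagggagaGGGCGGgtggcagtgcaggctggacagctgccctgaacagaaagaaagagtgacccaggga
Coa4: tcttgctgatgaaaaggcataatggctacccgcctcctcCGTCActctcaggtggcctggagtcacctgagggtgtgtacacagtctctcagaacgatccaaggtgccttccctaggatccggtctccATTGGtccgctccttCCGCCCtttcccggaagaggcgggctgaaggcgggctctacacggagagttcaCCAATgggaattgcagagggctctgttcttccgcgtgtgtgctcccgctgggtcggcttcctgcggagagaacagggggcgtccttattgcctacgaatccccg
Cdr2: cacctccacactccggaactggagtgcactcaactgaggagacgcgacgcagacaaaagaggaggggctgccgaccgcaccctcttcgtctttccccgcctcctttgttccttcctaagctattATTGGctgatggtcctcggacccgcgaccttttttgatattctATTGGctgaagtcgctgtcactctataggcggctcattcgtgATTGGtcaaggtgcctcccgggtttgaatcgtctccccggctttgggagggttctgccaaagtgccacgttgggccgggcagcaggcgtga
Positions are counted from 1 at the 5′ end, and the start site is base 251 of 300. The Myo7a window held GC boxes at positions 157 and 240. The Cdr2 window held CCAAT boxes at 125, 168 and 210, and the Coa4 window held CCAAT boxes at 129 and 197, a GC box at 144 and a cyclic AMP core at 40. Among all 32851 promoters in the table, 35.7% held the GC box, 37.4% the CCAAT box and 20.8% the cyclic AMP core at least once. A single match to any of these motifs is thus not rare. How often several matches occur in the same promoter was not computed. The E-box CACGTG (7.15% of all promoters) and the TATA box TATAAA (13.6%) were searched as well and matched none of the 5 genes. The window of Gdpd3 (chr7:126766164-126766463) matched none of the 5 motifs, and that of Plekhb1 (chr7:100662345-100662644) held 1 CCAAT box, at position 62. A downstream second start of Plekhb1 also had 1 CCAAT box, and one of Myo7a had none of the 5 motifs. Cdr2 had 20 CpG pairs in its window and Coa4 18, against 6 in those of Myo7a and Plekhb1, 7 in that of Gdpd3 and a median of 7 over all promoters.

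Total counts ran from 18952348 to 21826942 in KO and from 18034204 to 33617762 in WT libraries. Pgam5, on chromosome 5, had 1, 3 and 11 counts in KO and 167, 122 and 186 counts in WT, so the labels and the targeted gene go together. Ucp1, the uncoupling protein that marks brown fat, was at 3765 to 5974 CPM (a count as a share of its library total, scaled between libraries by TMM) in KO and 1638 to 2853 CPM in WT. Summed brown adipocyte markers, Ucp1 among them, overlapped between the genotypes (16314 to 18751 CPM in KO, 14089 to 17706 CPM in WT). Of these, 5 of 11 tested had a positive log2 fold change, with a median of -0.07. At an unadjusted p under 0.05 in edgeR 2 of them were higher and 0 lower, against 6.3% and 5.49% of all tested genes. Fabp4, with the highest mean in this sum, averaged 7402 CPM in KO and 8662 CPM in WT. On the first principal component, KO 3 and WT 2 lay apart from the rest at opposite ends. Summed lymphocyte markers, 14 genes with 0 of them at 0 counts, were at 26.9 to 29.5 CPM in KO and 15.9 to 20.5 CPM in WT. Here 9 of 9 tested had a positive log2 fold change, 1 of them at an unadjusted p under 0.05 in edgeR. Summed Schwann cell and nerve markers overlapped between the genotypes (179 to 239 CPM in KO, 196 to 203 CPM in WT), with Th at 0 counts. Of these, 10 of 11 tested had a positive log2 fold change, with a median of 0.50, beside a median of 0.49 for the lymphocyte markers. Melanocyte markers overlapped as well (20.6 to 27.4 CPM in KO, 16.3 to 21.8 CPM in WT), with Tyr and Oca2 at 0 counts. So did skeletal muscle markers (61.1 to 103 CPM in KO, 69.2 to 125 CPM in WT), with 1 of 10 tested positive and a median log2 fold change of -0.62. Of the muscle markers Myl1 had the most counts in every library. Acta1 had 10, 197 and 16 counts in KO and 66, 28 and 367 counts in WT. Myh4 had 6, 282 and 13 counts in KO and 35, 32 and 401 counts in WT, so both were highest in KO 2 and WT 3. Macrophage markers (83.8 to 148 CPM in KO, 98.9 to 168 CPM in WT; 5 of 12 positive) and testis and hair cell markers (6.84 to 9.82 and 8.59 to 11.0 CPM; 1 of 3 positive) overlapped too. The part of these cell types in the results below was not tested.

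Across the 6 genes, 2 had higher and 4 had lower counts in KO, and in 6 of 6 the 3 KO libraries lay apart from the 3 WT libraries. Among all genes tested 19.5% had no overlap between the genotypes, 10.1% with KO above and 9.39% with KO below. Since this contrast picked the 6 genes, this count and the counts of calls that follow show nothing further. The edgeR quasi-likelihood test with Benjamini-Hochberg adjustment over all genes called 1 of the 6, Myo7a, at a threshold of 0.05, against 0.0595% of all genes (0.0198% higher and 0.0397% lower). That call ended with the replicate block (adjusted p = 0.0864 in edgeR) and when WT 1, WT 3, KO 1, KO 2 or KO 3 was left out (adjusted p = 0.0806 to 0.165 in edgeR). At an unadjusted p under 0.05 it had 2 of the 6 higher and 4 lower, against 6.3% and 5.49% of all genes. DESeq2 called 5 of the 6, the exception being Coa4, against 1.12% of its genes (0.566% higher and 0.553% lower). Of the 9 genes edgeR called in all, 3 were on chromosome 7, Myo7a, Ucp2 and Trim34b. That chromosome holds 7.93% of all tested genes, and Myo7a was itself picked from this contrast. Trim34b had 4 counts over the KO and 204 over the WT libraries. Bulk counts cannot tell fewer cells of a type from less RNA per cell. The number of libraries is small, and the labels name individuals.

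Myo7a (ENSMUSG00000030761.15, chr7:98051060-98119524, minus strand) had 333, 366 and 335 counts in KO and 126, 81 and 194 counts in WT. In CPM these were 15.1, 15.7 and 16.4 in KO and 5.09, 5.40 and 5.71 in WT. Every KO library stood well above every WT library, and the libraries of each genotype lay close together. The means were 15.7 ± 0.613 CPM in KO and 5.40 ± 0.309 CPM in WT (SD, n = 3 each), a log2 fold change (KO minus WT) of 1.54 (SE 0.19). The lowest KO library was 2.65 times the highest WT library. The coefficient of variation was 3.89% in KO and 5.73% in WT, below the 5.39% and 9.21% that counting error alone would give at these counts.

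Map6 (ENSMUSG00000055407.14, chr7:99267447-99337137, plus strand) had 194, 186 and 357 counts in KO and 59, 71 and 70 counts in WT. In CPM these were 8.82, 7.98 and 17.4 in KO and 2.38, 4.74 and 2.06 in WT. KO 3 was about as far above the other KO libraries as WT 2 was above the other WT libraries on the log scale, and these are the same libraries that stood apart over all genes. The log2 fold change was 1.93 (SE 0.41), with means of 11.4 ± 5.24 CPM in KO and 3.06 ± 1.46 CPM in WT (SD, n = 3 each). Without KO 3 it was 1.49, without WT 2 it was 2.36 and without both it was 1.92. The intronic transcript Gm45591, on the same strand inside Map6, had 12 counts in KO and 1 in WT.

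Plekhb1 (ENSMUSG00000030701.17, chr7:100642892-100662414, minus strand) had 209, 184 and 140 counts in KO and 429, 267 and 601 counts in WT. In CPM these were 9.51, 7.90 and 6.84 in KO and 17.3, 17.8 and 17.7 in WT. The WT libraries were almost level with each other, with a coefficient of variation of 1.41% where counting error alone gives 5.08%, while the KO libraries spread by 16.6%. The means were 8.08 ± 1.34 CPM in KO and 17.6 ± 0.248 CPM in WT (SD, n = 3 each), a log2 fold change of -1.12 (SE 0.19).

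Gdpd3 (ENSMUSG00000030703.8, chr7:126766334-126775649, plus strand) had 30, 26 and 22 counts in KO and 48, 401 and 1056 counts in WT. In CPM these were 1.36, 1.12 and 1.07 in KO and 1.94, 26.7 and 31.1 in WT. WT 1 sat just above the KO libraries, 1.42 times the highest of them, and far below WT 2 and WT 3. Library by library, low values thus occurred in both genotypes, and high values in WT 2 and WT 3. The means were 1.19 ± 0.157 CPM in KO and 19.9 ± 15.7 CPM in WT (SD, n = 3 each), the WT mean and the log2 fold change of -4.06 (SE 0.82) resting on WT 2 and WT 3. The log2 fold change was -4.60 without WT 1. Gm9967, on the opposite strand, overlaps 7568 bases of Gdpd3, and it had 94 counts in KO and 174 in WT where Gdpd3 had 78 in KO and 1505 in WT. The overlap is of gene spans, introns included, and the overlap of exons was not computed. The strand setting of the counting is not given in the sources used here, so reads where exons of these 2 genes overlap cannot be told apart.

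Coa4 (ENSMUSG00000044881.7, chr7:100537071-100540369, plus strand) had 86, 79 and 62 counts in KO and 165, 101 and 198 counts in WT. In CPM these were 3.91, 3.39 and 3.03 in KO and 6.67, 6.74 and 5.83 in WT. The genotypes did not overlap, and the lowest WT library was 1.49 times the highest KO library. The means were 3.44 ± 0.443 CPM in KO and 6.41 ± 0.506 CPM in WT (SD, n = 3 each). At -0.89 (SE 0.24), its log2 fold change was the smallest of the 6.

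Cdr2 (ENSMUSG00000030878.11, chr7:120957036-120982312, minus strand) had 49, 72 and 55 counts in KO and 175, 121 and 321 counts in WT. In CPM these were 2.23, 3.09 and 2.69 in KO and 7.07, 8.07 and 9.45 in WT. The lowest WT library was 2.29 times the highest KO library. The means were 2.67 ± 0.431 CPM in KO and 8.20 ± 1.19 CPM in WT (SD, n = 3 each), a log2 fold change of -1.62 (SE 0.26).

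**Figure D1:**
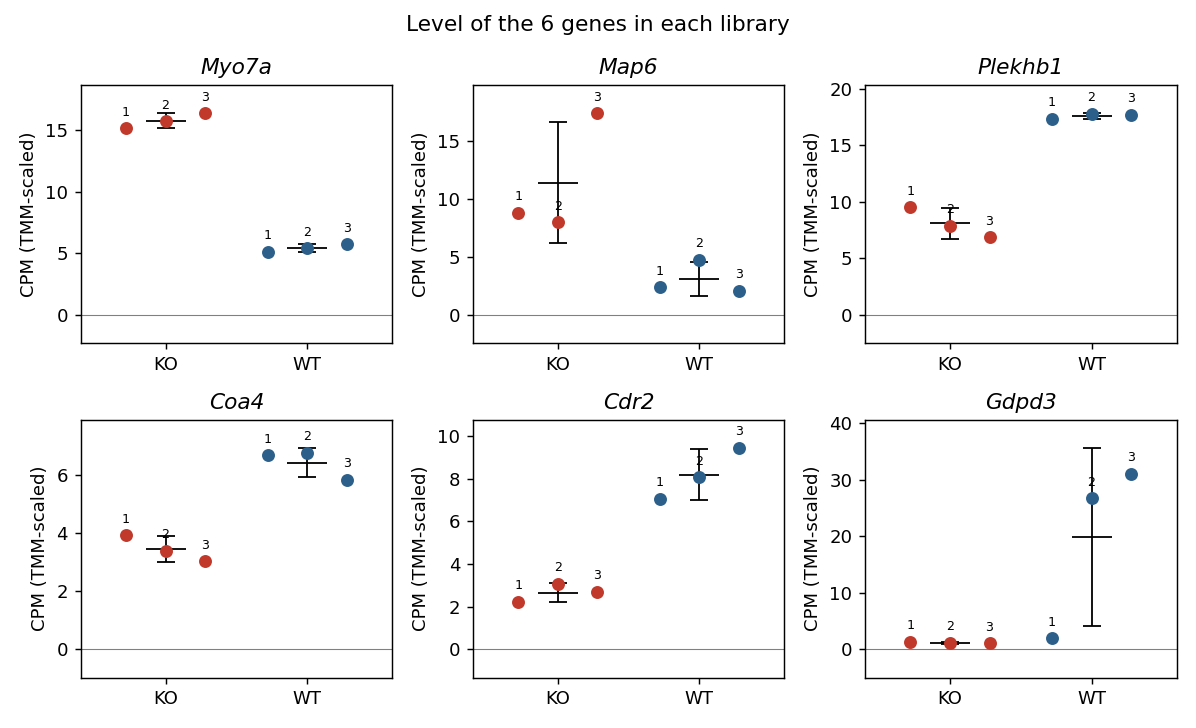
Level of each of the 6 genes in CPM (vertical axes, linear), KO libraries in red and WT libraries in blue, numbered by replicate, with the mean (bar) and SD (whiskers). Myo7a and Map6 lie higher in KO, the other genes lie lower, and Gdpd3 in WT 1 (1.94 CPM) lies beside the KO libraries and far from WT 2 and WT 3.

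Levels of different genes were compared as CPM per kb of exon. In KO the order of mean level per kb was Plekhb1 (2.18), Myo7a (1.84), Coa4 (1.31), Map6 (1.25), Gdpd3 (0.542) and Cdr2 (0.470). The libraries of Plekhb1 and Myo7a overlapped, as did those of Coa4 and Map6 and those of Gdpd3 and Cdr2, so these neighbours in the order did not differ beyond their spread. In WT the order was Gdpd3 (9.11), Plekhb1 (4.74), Coa4 (2.44), Cdr2 (1.44), Myo7a (0.630) and Map6 (0.334). There the Gdpd3 libraries ran from 0.887 to 14.2 CPM per kb and took in the levels of Plekhb1, Coa4 and Cdr2, while no other neighbours in the order overlapped. Against all tested genes, the level per kb of Myo7a lay at percentile 40.2 in KO and at percentile 20.6 in WT, and that of Gdpd3 at percentile 18.1 in KO and 77.7 in WT.

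**Figure D2:**
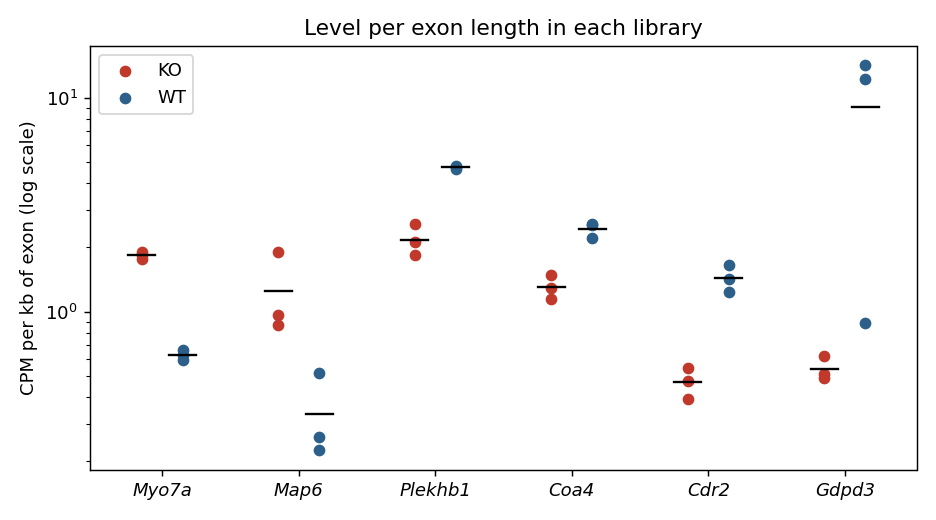
CPM per kb of exon (vertical axis, log scale) of the 6 genes in each KO (red) and WT (blue) library, with the group mean as a bar. Map6 and Myo7a are the lowest of the 6 in WT, and Cdr2 and Gdpd3 in KO.

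The spread between libraries of one genotype differed widely among the 6 genes. The pooled standard deviation of log2 CPM within genotypes was 0.07 for Myo7a, 0.15 for Coa4, 0.17 for Plekhb1, 0.22 for Cdr2, 0.62 for Map6 and 1.57 for Gdpd3, against a median of 0.31 over all tested genes. Among genes with a mean CPM within 2-fold of its own, Myo7a lay at percentile 0.720 of this spread (4165 genes), Coa4 at percentile 6.28 (3184 genes) and Gdpd3 at percentile 99.5 (4165 genes). Low spread enters the test of the contrast, so the place of Myo7a and Coa4 describes genes picked from this contrast.

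**Figure D3:**
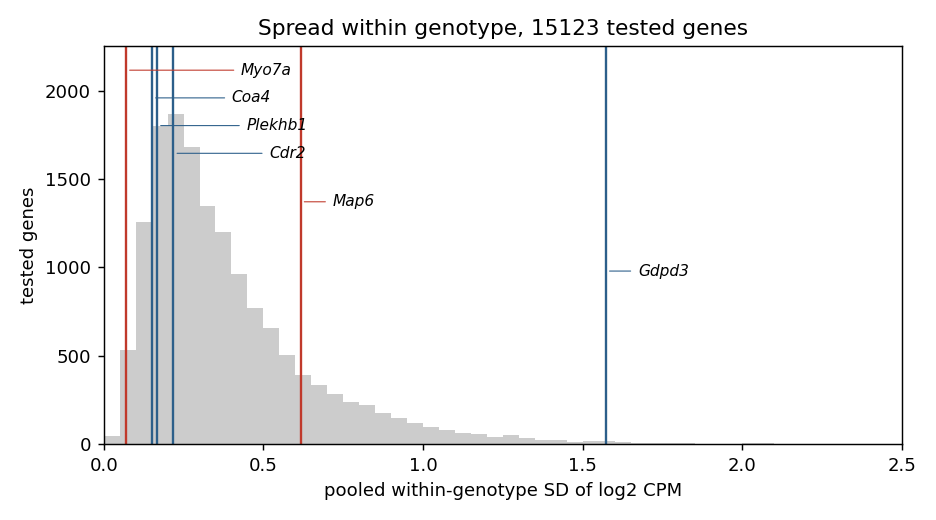
Histogram over tested genes of the pooled standard deviation of log2 CPM within genotypes (horizontal axis), with lines at the genes higher in KO (red, Myo7a and Map6) and lower in KO (blue). Myo7a at 0.07 stands near the low end and Gdpd3 at 1.57 in the far tail, around a median of 0.31.

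By position, Myo7a, Map6, Coa4 and Plekhb1 follow each other along chromosome 7 with gaps of 1147922, 1199933 and 102522 bases. Cdr2 lies 20.3 Mb beyond Plekhb1, and Gdpd3 5.78 Mb beyond Cdr2. Genes within 0.5 Mb of any of the 6 numbered 105 among those tested. Of these, edgeR called 0 higher and 1 lower, Ucp2, the mitochondrial carrier gene related to Ucp1, and limma-voom called the same gene. The edgeR share was 0.952%, against 0.0595% of all genes, and rests on 1 gene. DESeq2 called Ucp2 and also Gm45012, a gene named here after its values were seen. The DESeq2 share was 1.92% of 104 neighbours, against 1.12% of all genes. With no adjustment, 7 neighbours were higher and 6 lower at a p under 0.05, 12.4% against 11.8% of all tested genes, and 19.0% had no overlap between genotypes against 19.5%. The median log2 fold change of the neighbours was 0.07, against 0.00 over all tested genes. By neighbourhood, these were 9 of 43 genes (20.9%) at an unadjusted p under 0.05 near Myo7a, Map6, Coa4 and Plekhb1 and 4 of 62 (6.45%) near Cdr2 and Gdpd3; that difference was not tested.

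Ucp2 lies 35.1 kb from Coa4 and 141 kb from Plekhb1, and was at 44.4 ± 4.24 CPM in KO and 155 ± 18.5 CPM in WT (SD, n = 3 each). Dnajb13, a cochaperone gene that overlaps the end of Ucp2 on the opposite strand, had 2, 10 and 12 counts in KO and 19, 53 and 56 counts in WT, and Ucp3 was at 161 ± 46.4 CPM in KO and 112 ± 14.6 CPM in WT (SD, n = 3 each). Neither passed with edgeR, Dnajb13 at -2.39 on the log2 scale (SE 0.73, adjusted p = 0.350) and Ucp3 at 0.53 (SE 0.23, adjusted p = 0.422). Reads in the overlap of Ucp2 and Dnajb13 cannot be told apart without the strand setting. Between Coa4 and Plekhb1 stand Mrpl48, a gene of the mitochondrial ribosome named here for its position (48.3 ± 3.69 CPM in KO and 48.6 ± 13.1 CPM in WT, SD, n = 3 each), and Rab6a, a small GTPase of Golgi traffic, and Rab6a, on the other strand, ends 1.62 kb from the end of Plekhb1. Rab6a averaged 67.3 CPM in KO and 85.3 CPM in WT (n = 3 each), with no overlap between libraries, a log2 difference of -0.34 (SE 0.16) whose adjusted p in edgeR was 0.434.

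Next to Myo7a, Capn5, a calpain protease gene right beside it, had 35, 29 and 39 counts in KO and 27, 10 and 26 counts in WT. In CPM every KO library of Capn5 lay above every WT library, but the difference of 0.89 on the log2 scale (SE 0.42) missed the threshold (adjusted p = 0.428 in edgeR). Most genes near Myo7a went the other way: 3 of 10 tested within 0.5 Mb had a positive log2 fold change, with a median of -0.31. The only 1 at an unadjusted p under 0.05 in edgeR was Aamdc, lower in KO (log2 difference -0.42 with SE 0.18, adjusted p = 0.419 in edgeR). Around Map6, Arrb1, which encodes a beta-arrestin, was at 37.4 ± 14.5 CPM in KO and 19.9 ± 3.34 CPM in WT (SD, n = 3 each; log2 difference 0.90 with SE 0.27, adjusted p = 0.349 in edgeR). Gdpd5, a relative of Gdpd3 that lies 44.3 kb from Map6, was at 19.5 ± 0.293 CPM in KO and 28.6 ± 8.59 CPM in WT (SD, n = 3 each; log2 difference -0.55 with SE 0.22, adjusted p = 0.401 in edgeR). Gm45012, an antisense gene 40.4 kb from Map6, had 83, 87 and 66 counts in KO and 3, 16 and 4 counts in WT.

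Near Cdr2, Eef2k, the kinase of elongation factor 2, was at 11.2 ± 0.496 CPM in KO and 7.47 ± 0.057 CPM in WT (SD, n = 3 each), without overlap, and did not pass (log2 difference 0.58 with SE 0.19, adjusted p = 0.370 in edgeR). Polr3e, the nearest tested gene to Cdr2 at 9.60 kb and a subunit gene of RNA polymerase III, overlapped between the genotypes (log2 -0.28, SE 0.18). Near Gdpd3, Cdipt, which encodes phosphatidylinositol synthase, was at 26.8 ± 5.95 CPM in KO and 17.8 ± 2.08 CPM in WT (SD, n = 3 each; log2 difference 0.59 with SE 0.20, adjusted p = 0.374 in edgeR). Of 49 tested genes within 0.5 Mb of Gdpd3, 2 had an unadjusted p under 0.05, Cdipt and Lat, both positive.

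**Figure D4:**
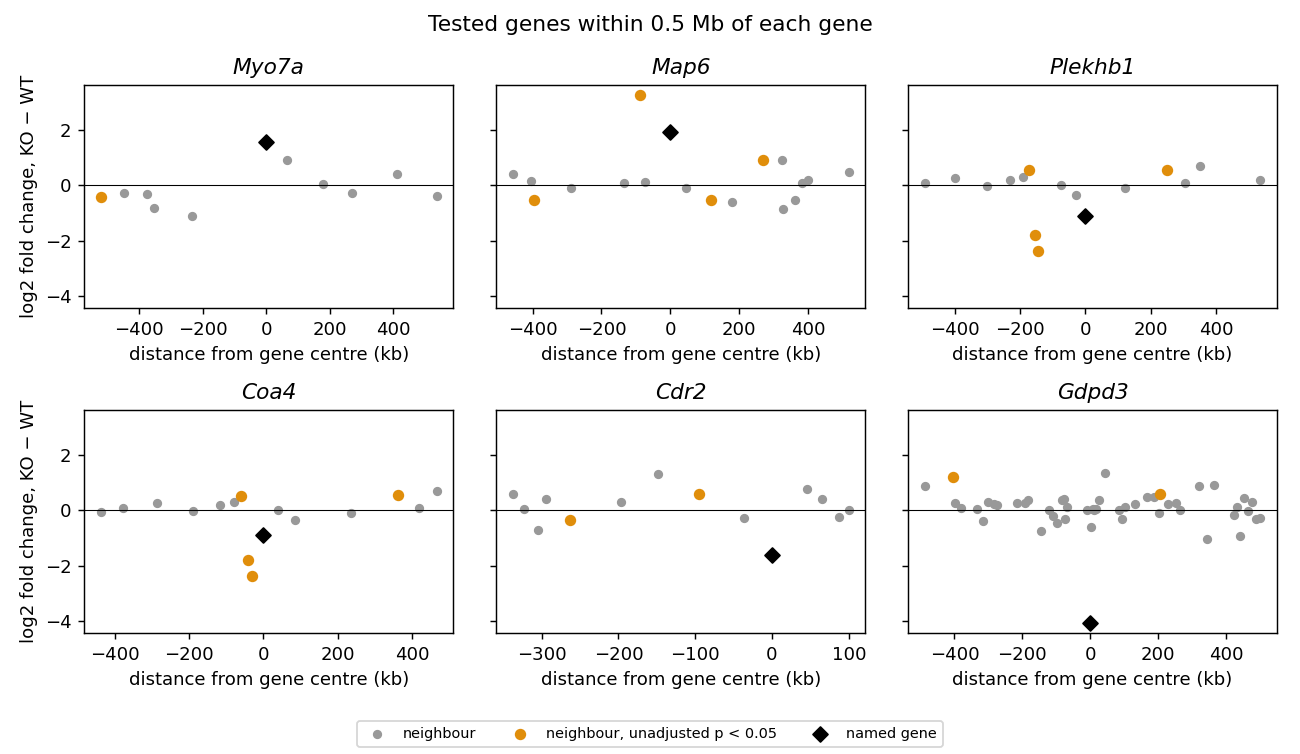
Log2 fold change (KO minus WT, vertical axis) of tested genes with any part within 0.5 Mb of each of the 6 genes, by distance between gene centres in kb (horizontal axis), with the named gene as a black diamond, neighbours at an unadjusted p under 0.05 in orange and other neighbours in grey. Most neighbours lie near 0 beside the diamonds, and the pair below -1 near Coa4 and Plekhb1 is Ucp2 and Dnajb13.

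Along chromosome 7 as a whole, with the 6 genes left out, 162 of 1193 tested genes (13.6%) had an unadjusted p under 0.05. In bins of 5 Mb by gene start, again without the 6 genes, the share was 17.1% (7 of 41) from 95 to 100 Mb, which holds Myo7a and Map6, and 22.6% (12 of 53) from 100 to 105 Mb, which holds Coa4 and Plekhb1. It was 11.8% (4 of 34) in the bin of Cdr2 and 5.61% (6 of 107) in that of Gdpd3. The highest share of the chromosome among bins with at least 20 tested genes, 33.3% (12 of 36), stood from 115 to 120 Mb, a bin that holds none of the 6. Of the 12 genes 10 were lower in KO, and the median log2 fold change over all 36 was -0.35. Between Plekhb1 and Cdr2 as a whole 37 of 161 tested genes (23.0%) had an unadjusted p under 0.05, and between Cdr2 and Gdpd3 2 of 53 (3.77%). Neighbouring genes are not independent, and none of these shares was tested. A difference in genetic background between the genotypes and the loss of PGAM5 cannot be told apart in these counts.

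**Figure D5:**
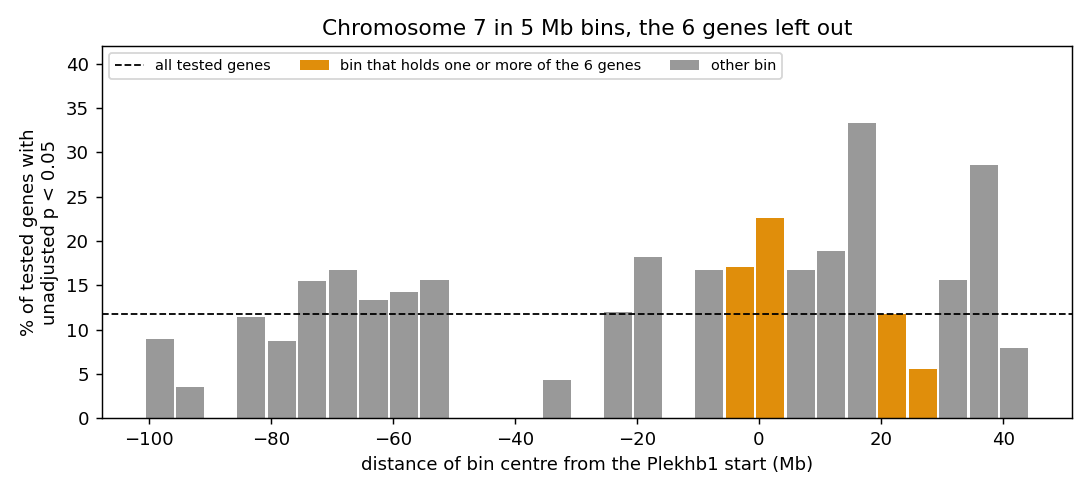
Share of tested genes with an unadjusted p under 0.05 (vertical axis, percent) in 5 Mb bins of chromosome 7, by distance of the bin centre from the Plekhb1 start (horizontal axis, Mb), with the 6 genes left out, bins under 20 tested genes not drawn, and the 11.8% of all tested genes as a dashed line. The bins of Myo7a, Map6, Coa4 and Plekhb1 (orange, around 0) lie above the line, that of Cdr2 lies on it and that of Gdpd3 below it.

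Relatives and partners of the 6 genes were taken from 8 lists, in which edgeR called 0 of 157 tested genes after adjustment over all genes, limma-voom called 0, and DESeq2 called 3 of 155 (Plekhh3 higher, Mapt and Plekha7 lower), 1.94% against 1.12% of all genes. At an unadjusted p under 0.05 edgeR had 12 higher and 10 lower, 22 of 157, against 11.8% of all tested genes (6.3% higher and 5.49% lower), the background for each list below. Closest relatives of the 6 genes did not pass. Plekhb2, the paralogue of Plekhb1, was at 45.5 ± 4.43 CPM in KO and 44.7 ± 2.92 CPM in WT (SD, n = 3 each), a log2 fold change of 0.03 (SE 0.15). Cdr2l, the paralogue of Cdr2, stood at a log2 fold change of 0.19 (SE 0.26), Myo7b at 0.59 (SE 0.62), Gdpd1 at -0.64 (SE 0.57) and Coa6, a fellow assembly factor of cytochrome c oxidase, at -0.14 (SE 0.18). Map6d1 had 4 counts in KO and 4 in WT and was not tested.

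Among 17 tested unconventional myosins 15 had a positive log2 fold change, as did 7536 of all 15123 tested genes. With an unadjusted p under 0.05 there were 2, a share of 11.8% that equals the one over all tested genes, and the median was 0.32 against 0.00 over all. Myo10, a filopodial motor, was at 73.0 ± 17.2 CPM in KO and 47.0 ± 8.35 CPM in WT (SD, n = 3 each; log2 difference 0.63 with SE 0.21, adjusted p = 0.374 in edgeR), and Myo19, a motor of mitochondria, at 22.9 ± 1.61 CPM in KO and 16.1 ± 2.26 CPM in WT (SD, n = 3 each; log2 difference 0.50 with SE 0.18, adjusted p = 0.375 in edgeR). Among 13 tested partners of Myo7a and Usher proteins 0 had an unadjusted p under 0.05 and the median was 0.02. Cib2, a calcium-binding partner of the mechanotransduction complex, was at 285 ± 35.6 CPM in KO and 227 ± 27.7 CPM in WT (SD, n = 3 each).

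Among 24 tested microtubule-associated proteins 1 was higher and 1 lower at an unadjusted p under 0.05 (8.33% against 11.8% of all tested genes), with a median of 0.08. Mapt, which encodes tau, was at 40.8 ± 7.78 CPM in KO and 75.8 ± 13.5 CPM in WT (SD, n = 3 each; log2 difference -0.89 with SE 0.20, adjusted p = 0.305 in edgeR), the opposite direction to Map6. Stmn2, a stathmin of neurons, had a log2 fold change of 0.78 (SE 0.33; adjusted p = 0.419 in edgeR).

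Of 26 tested pleckstrin homology family genes 3 were higher and 2 lower at an unadjusted p under 0.05 (19.2% against 11.8% of all tested genes), with a median of 0.05. Plekhh3 was at 47.5 ± 0.805 CPM in KO and 24.2 ± 3.89 CPM in WT (SD, n = 3 each; log2 difference 0.97 with SE 0.17, adjusted p = 0.159 in edgeR). Plekha7, a junction protein gene of chromosome 7, had 21, 29 and 30 counts in KO and 285, 25 and 280 counts in WT. Here WT 2 lay near the KO libraries, as WT 1 did for Gdpd3, and the log2 fold change was -2.56 (SE 0.59; adjusted p = 0.305 in edgeR).

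Of 16 tested genes of the Cdr2, Myc and Max list 3 were higher and 5 lower at an unadjusted p under 0.05, 8 of 16, against 11.8% of all tested genes, with a median log2 fold change of -0.28 against 0.00. Without adjustment over all genes these are not calls, and edgeR, DESeq2 and limma-voom called 0 of the list after it. Max, the dimerisation partner of Myc, was at 34.1 ± 3.83 CPM in KO and 57.6 ± 12.4 CPM in WT (SD, n = 3 each; log2 difference -0.76 with SE 0.19, adjusted p = 0.309 in edgeR), and Mlx, a relative of Max, at 26.5 ± 2.27 CPM in KO and 18.7 ± 0.582 CPM in WT (SD, n = 3 each; log2 difference 0.51 with SE 0.16, adjusted p = 0.350 in edgeR).

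Lysophospholipid and glycerophosphodiesterase genes had 1 higher and 1 lower of 22 at an unadjusted p under 0.05 (9.09% against 11.8% of all tested genes; median 0.05). The higher one, Mgll, monoacylglycerol lipase, was at 626 ± 143 CPM in KO and 402 ± 56.7 CPM in WT (SD, n = 3 each; log2 difference 0.64 with SE 0.22, adjusted p = 0.374 in edgeR). Cytochrome c oxidase assembly factors had 2 higher and 1 lower of 24 (12.5%; median 0.05), with Cox11, a copper chaperone, at 5.35 ± 0.166 CPM in KO and 3.32 ± 0.295 CPM in WT (SD, n = 3 each; log2 difference 0.69 with SE 0.24, adjusted p = 0.375 in edgeR). Proteins with paired cysteine motifs and their import factors had 0 higher and 1 lower of 22 (4.55%; median -0.06), and the lower one, Cmc1, overlapped between the genotypes (log2 difference -0.62 with SE 0.27, adjusted p = 0.422 in edgeR).

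Genes with the most similar pattern were found by the root-mean-square distance between log2 CPM values over the 6 libraries, each gene centred on its own mean. Since this contrast picked the 6 genes, genes near them in pattern tend to separate the genotypes too. The distances below are therefore a description only. Nearest to Myo7a were Slc41a3 (0.128), Zfp185 (0.224) and Pepd (0.244), against a median distance of 0.824. Pepd is on chromosome 7, which holds 7.93% of all tested genes, and Slc41a3 and Zfp185 are not. Nearest to Map6 were Efna2 (0.297), Man2a2 (0.313) and Gm14794 (0.398). Man2a2 is also on chromosome 7, at 175 ± 39.1 CPM in KO and 71.8 ± 36.1 CPM in WT (SD, n = 3 each).

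Among genes lower in KO, Plekhb1 was nearest to Rpp38 (0.107), Zfp677 (0.114) and Zfp53 (0.134), and Coa4 to Epb41l4aos (0.0756), Hipk3 (0.0912) and Zfp677 (0.103). Cdr2 was nearest to Ucp2 (0.202), Ccng2 (0.212) and Gm13830 (0.277). Plekhb1 and Coa4, whose starts lie in one 5 Mb bin, were 0.144 apart, while Gdpd3 was at least 1.45 from each of the other genes in the set. For Gdpd3 a single gene came close, Gm10036 on chromosome 18 (0.348), followed by Gm43595 (1.02) and Gm15542 (1.02). Gm15542 is on chromosome 7, and its libraries overlapped between the genotypes. Gm10036 had 50, 56 and 53 counts in KO and 72, 1120 and 1542 counts in WT, so WT 1 lay near the KO libraries in this gene too. Gm10036, Gm43595, Gm15542 and Gm14794 are annotated as pseudogenes, so their counts are uncertain where reads match a near-identical copy.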

How the data were processed

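Poly(A) RNA of brown fat was counted per gene, and the deposited values are raw counts, whole numbers without normalization, per the file headers and values. The submitters' processing notes name mm10, featureCounts 1.6.2, HISAT2 2.1.0 and DESeq2; annotation release and strand setting: not given in the sources used here. The 6 columns were matched to samples by name, and 0 further columns were left over. Of 53715 identifiers, 53620 were placed with GENCODE release M 21 (mm10), which also gave exon lengths. Within each genotype, no pair of libraries was identical or differed by as little as sampling noise; pairs across genotypes were not compared.

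The edgeR filter filterByExpr, at a minimum of 10 per library and 15 in total, left 15123 genes with 99.9% of counts, scaled by TMM. The quasi-likelihood test of edgeR 4.0.16 (R 4.3.3, limma 3.58.1) set 3 KO against 3 WT libraries, the labels listing 4 KO; log2 CPM used a prior count of 2. A count of 0 allows up to 3 counts, 0.0883 to 0.200 CPM, for counting error only. The threshold was 0.05 after Benjamini-Hochberg adjustment over all genes. On simulated data in 5 draws of 15123 genes for KO against WT, edgeR recovered 88.4% of 4-fold and 33.2% of 2-fold changes, with 7.60% of calls false. The changed genes were drawn only from genes above a cut on mean level. Counts were drawn independently per gene, with no outlying library such as KO 3 or WT 2, so these rates need not hold for the real libraries.

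The 6 genes and the lists were chosen with earlier results of these data known. Besides the 6, the text names their closest relatives, up to 5 neighbours within 0.5 Mb of smallest p, up to 3 list genes of smallest p or 2 of highest level, and the 3 genes of most similar pattern. The settings varied were limma-voom, DESeq2 1.42.0, its size factors alone, no filter, a stricter filter (CPM of 1 in 3 libraries), a replicate block, each library left out, a 1 Mb window and, added after the data were seen, leaving out both WT 2 and KO 3. Plots came from matplotlib 3.10.9 under Python 3.11.15, with pandas 2.3.3.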

Additional observations from a re-analysis of the deposited data

How the results depend on the processing

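The log2 fold changes of all 6 genes kept their sign under the 13 alternatives run and moved by less than the spread between replicates, from 1.50 to 1.58 for Myo7a, 1.49 to 2.36 for Map6, -1.25 to -1.01 for Plekhb1, -0.99 to -0.77 for Coa4, -1.74 to -1.49 for Cdr2 and -4.60 to -3.27 for Gdpd3. With no filter edgeR called 5 of the 6, Coa4 being the exception. In that fit the unadjusted p of Gdpd3 in edgeR was 1.2e-40, against 0.00066 with the filter, although WT 1 lay near the KO libraries. Nothing is read from the calls without a filter. The edgeR call of Myo7a held without WT 2 and ended without any other single library and with the replicate block. Without WT 1 edgeR called Gdpd3, and without both WT 2 and KO 3 it called Myo7a and Map6.

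The number of genes called, 9, was 168 with DESeq2, 663 with no filter, 5 with the replicate block and 27 without both WT 2 and KO 3. It ran from 0 to 17 with one library left out: 0 in edgeR without KO 2, where 1482 genes had a p under 0.05 before adjustment, 1 without KO 1 and 17 without WT 2. The 13 neighbours at an unadjusted p under 0.05 were 23 of 178 with no filter, and 10 to 14 with one library left out. The 12 genes of the bin from 100 to 105 Mb were 20 of 123 with no filter, 19 without both WT 2 and KO 3, and 9 to 18 with one library left out, 18 being without WT 2. The 22 list genes were 13 without KO 2, 14 without KO 3 and at most 32, without WT 3. The cause of these shifts was not tested. Same-numbered libraries deviated with correlations of -0.11, 0.10 and 0.09, so the numbers were not taken as pairs. With 3 libraries a group, small differences may be missed.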
